A study of Mus musculus with 28 samples.

Results

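Mitochondrial ribosomal proteins are the nuclear-encoded proteins of the ribosome inside mitochondria, and their mRNAs were followed here in retinal ganglion cell (RGC) axons and in the retina. The members are all gene symbols in the deposited files that begin with Mrpl or Mrps followed by a number, which gave 77 of the 23995 genes listed. By symbol, 48 belong to the large subunit (Mrpl) and 29 to the small subunit (Mrps). All 77 are annotated as protein coding in GENCODE, on 17 chromosomes. The rule uses the symbol and no measured value, though it was chosen with earlier results of these data known.

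The proteins are translated on cytosolic ribosomes, imported into mitochondria and assembled there with ribosomal RNA encoded by mitochondrial DNA. The finished mitochondrial ribosome makes the few proteins that mitochondrial DNA encodes, which are subunits of the respiratory chain and of ATP synthase. Axon terminals have a high demand for ATP and hold many mitochondria, so the mRNAs of nuclear-encoded mitochondrial proteins are of interest in axons. The present data report which of these mRNAs were bound to tagged cytosolic ribosomes. They do not report on translation inside mitochondria, and the ribosome-bound material was taken from a lysate cleared of mitochondria.

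In axon-TRAP, RiboTag mice on a C57BL/6 background were crossed with Pax6-alpha-Cre mice, so that the cytosolic ribosomal protein Rpl22 acquires an HA tag where Cre has acted. This Cre acts in progenitors of the peripheral retina, so it marks several retinal cell types and not every RGC, and in the superior colliculus (SC) the tag is carried by RGC axons. Tissue was pooled from several animals for each library. The 24 libraries form 12 groups with 2 replicates each, namely Cre-positive SC, SC of Cre-negative littermates that carry the RiboTag allele without Cre, and Cre-positive eyes (retina), each sampled before birth (E17.5), after birth (P0.5 and P7.5, in postnatal days) and in adulthood. A further 4 adult libraries, 1 each from SC and retina with and without ribosome run-off, hold read counts. With 2 replicates a group and pooled tissue, p-values measure the spread between these libraries, and fewer tagged axons and less mRNA per axon cannot be told apart.

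What the genes share beyond their name was looked for in their promoters, since nuclear respiratory factor 1 (NRF1) and ETS-family factors such as GABP are known activators of nuclear genes for mitochondrial proteins. RefSeq windows of GRCm38.p6, the assembly also called mm10, were found for 68 members, and the 250 bases before each start were searched on both strands. The palindromic NRF1 motif, with its middle base free, stood in 10 of the 68 members (14.7%) and in 5.9% of 16753 listed genes with a window. The ETS letters CCGGAAG stood in 17 members (25%) and in 10.2% of those genes. Either stood in 26 members (38.2%) and in 15% of genes. The letters CCAAT stood in 36.8% of members and 39.1% of genes, and the YY1 letters ATGGCGG in 1.47% and 3.05%. Of the members listed above 0 in both P0.5 Cre-positive SC libraries, 25 had a window and 10 of these held the NRF1 or ETS motif (40%). Of the members listed at 0 in both, 15 of 41 held one of them (36.6%). These are matches of letters and not measured binding.

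The stretches below are shown because they belong to members called between sources at P0.5, and the capitals mark the NRF1 motif in the first 3 and the ETS letters, or their reverse complement, in the others, each read on the strand of the gene. Mrpl30 lies on chr1:37890379-37890418 (plus), Mrpl44 on chr1:79775968-79776007 (plus), Mrpl12 on chr11:120484541-120484580 (plus), Mrpl43 on chr19:45006477-45006513 (minus), Mrpl48 on chr7:100583143-100583179 (minus) and Mrpl3 on chr9:105053234-105053267 (plus).
Mrpl30: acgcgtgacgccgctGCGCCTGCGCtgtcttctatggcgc
Mrpl44: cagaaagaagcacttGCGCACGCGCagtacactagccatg
Mrpl12: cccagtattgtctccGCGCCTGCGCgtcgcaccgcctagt
Mrpl43: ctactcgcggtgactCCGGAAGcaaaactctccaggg
Mrpl48: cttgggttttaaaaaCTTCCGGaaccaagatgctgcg
Mrpl3: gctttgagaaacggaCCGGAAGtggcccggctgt

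A protein-coding gene started on the other strand within 1000 bases upstream of 18 members (23.4%), against 6.79% of all 21951 protein-coding genes. Exons of 32 of the 77 members (41.6%) overlap an exon of another gene, for example Mrpl46 and Mrps11 with each other and Mrpl43 with Twnk, the mitochondrial DNA helicase. The sources used here do not state that strand was kept, so reads of overlapping genes cannot be told apart there, and this touches 11 of the 16 members called at P0.5 below.

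The files give FPKM, which counts fragments scaled by transcript length and by library size, and no totals. Depth was therefore read from the steps between low values of single-transcript genes. It ranged from 497000 to 13900000 fragments, and was lowest in E17.5 Cre-negative SC replicate 1 and the adult SC libraries. For a member of median length, 1047 bases, 3 fragments corresponded to between 0.206 and 5.77 FPKM depending on the library, and a lower level could not be told from 0. This floor covers counting error only. Since abundant cytosolic ribosomal protein mRNAs were also at 0 in many libraries (11 to 67 of 80 listed above 0), a value of 0 says that the gene is listed at 0 and not that the mRNA is absent. The summed level of the 11 listed RGC markers, Stmn2, Gap43 and Nefl among them, was 109 to 7490 FPKM in the retina libraries. Only 3 of the 11 were above 0 in adult retina replicate 1, and 7 in P7.5 retina replicate 1. The sum was also above 0 in P0.5 SC with and without Cre, as given below. Several libraries stood apart. P7.5 retina replicate 1 and adult retina replicate 1 listed 22 and 10 members above 0, against 67 and 63 in their partners. Replicates of the SC outside P0.5 had little in common, as described next.

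More members were listed above 0 in retina than in SC. The retina libraries listed 10 to 67 members above 0, the Cre-positive SC libraries 3 to 31 and the Cre-negative SC libraries 4 to 30. In the P0.5 retina, both libraries listed 65 members (84.4%), where 33.9% and 35.2% of all genes were above 0. In Cre-positive SC, the numbers in replicates 1 and 2 were 20 and 23 for E17.5, 31 and 31 for P0.5, 15 and 15 for P7.5, and 12 and 3 for adult SC. In Cre-negative SC they were 30 and 14, 4 and 5, 21 and 18, and 23 and 7 in the same order. At a level of at least 1 FPKM the order turned at P0.5, with a mean of 28 members a library in Cre-positive SC and 18.5 in retina. P0.5 was the only stage at which both Cre-positive libraries listed more members than both Cre-negative libraries. All genes showed the same order at that stage, with 19.3% and 20.5% above 0 in Cre-positive and 9.01% and 10.6% in Cre-negative SC.

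**Figure D1:**
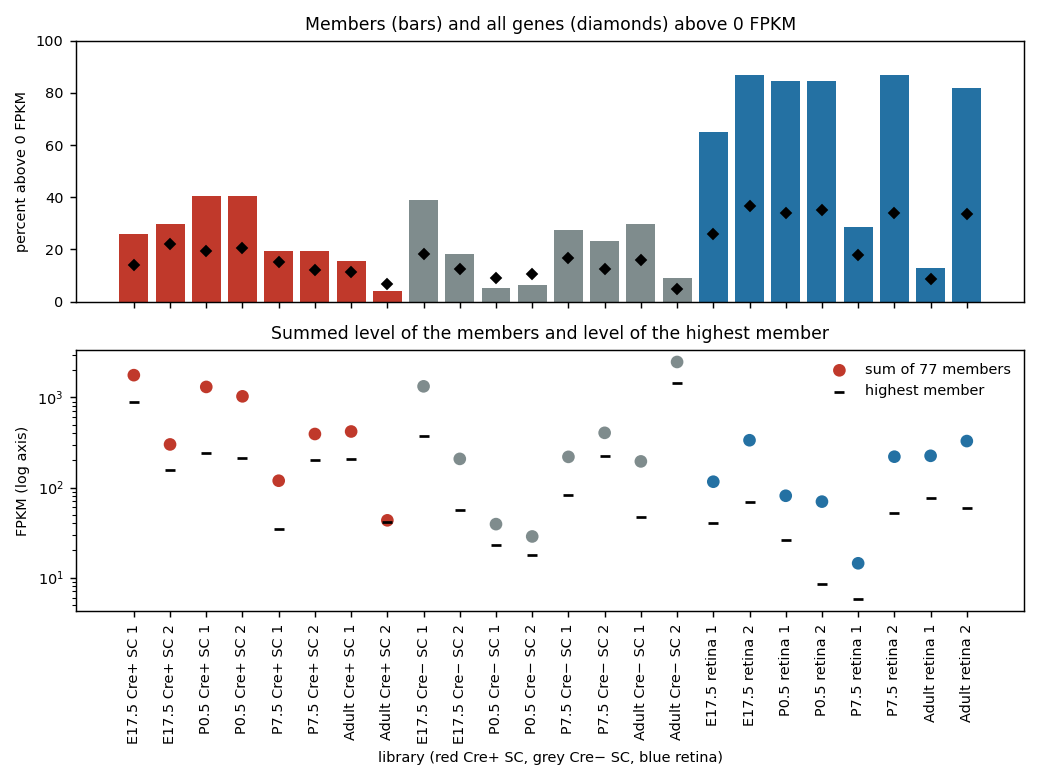
Upper panel, percent of the 77 members (bars) and of all genes (diamonds) above 0 FPKM in each of the 24 libraries; lower panel, summed FPKM of the members (circles) and FPKM of the highest member (dashes) on a log axis. Red is Cre-positive SC, grey Cre-negative SC and blue retina; the P0.5 Cre-negative libraries list 4 and 5 members and the P0.5 Cre-positive libraries 31 each.

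The 2 replicates of a group shared most of their members at P0.5 and fewer at the other stages. In P0.5 Cre-positive SC, 30 of the 32 members above 0 in either library were above 0 in both (93.8%), and the log2(FPKM + 1) values of the 77 members had a Pearson correlation of 0.985, given as a description across genes. The corresponding share was 43.3% for E17.5, 25% for P7.5 and 15.4% for adult Cre-positive SC. In Cre-negative SC it was 12.8%, 80%, 30% and 11.1% from E17.5 to adult, and in retina 60.3%, 83.1%, 32.8% and 14.1%. Over all genes, the share was 88.8% in P0.5 Cre-positive SC and 34.6 to 40.9% in Cre-positive SC of the other stages. Between the P0.5 Cre-positive replicates, 79.2% of 4105 genes differed by more than sampling noise at the estimated depth (chi-square above its 95% point), so they were counted as 2 samples. Separate amplifications of 1 lysate could also differ this much, and the labels do not say whether the replicates came from separate litters.

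A few members carried much of the signal in the SC libraries other than those of P0.5 Cre-positive SC. At E17.5 and in the adult the highest member differed between the 2 replicates of each SC group. At P7.5, Mrpl32 was the highest member in both Cre-negative libraries and in 1 Cre-positive library. At E17.5, Mrpl52 had 896 FPKM in Cre-positive SC replicate 1 and was listed at 0 in replicate 2, and Mrpl32 had 0 and 155 FPKM. Mrpl54 had 372 and 0 FPKM in the Cre-negative SC of that stage. In the adult, Mrpl55 had 206 and 0 FPKM in Cre-positive SC, and Mrpl4 had 1.63 and 1440 FPKM in Cre-negative SC. In P0.5 Cre-negative SC, Mrpl35 held 59.1% of the summed FPKM of the members in replicate 1 and Mrpl15 61.4% in replicate 2. The highest member held 24.2 to 61.4% of this sum in the Cre-negative SC libraries, 18.3 to 94.8% in the Cre-positive SC libraries and 12.3 to 40.1% in retina. The lowest of these Cre-positive values, 18.3 and 20.7%, came from the P0.5 libraries.

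**Figure D2:**
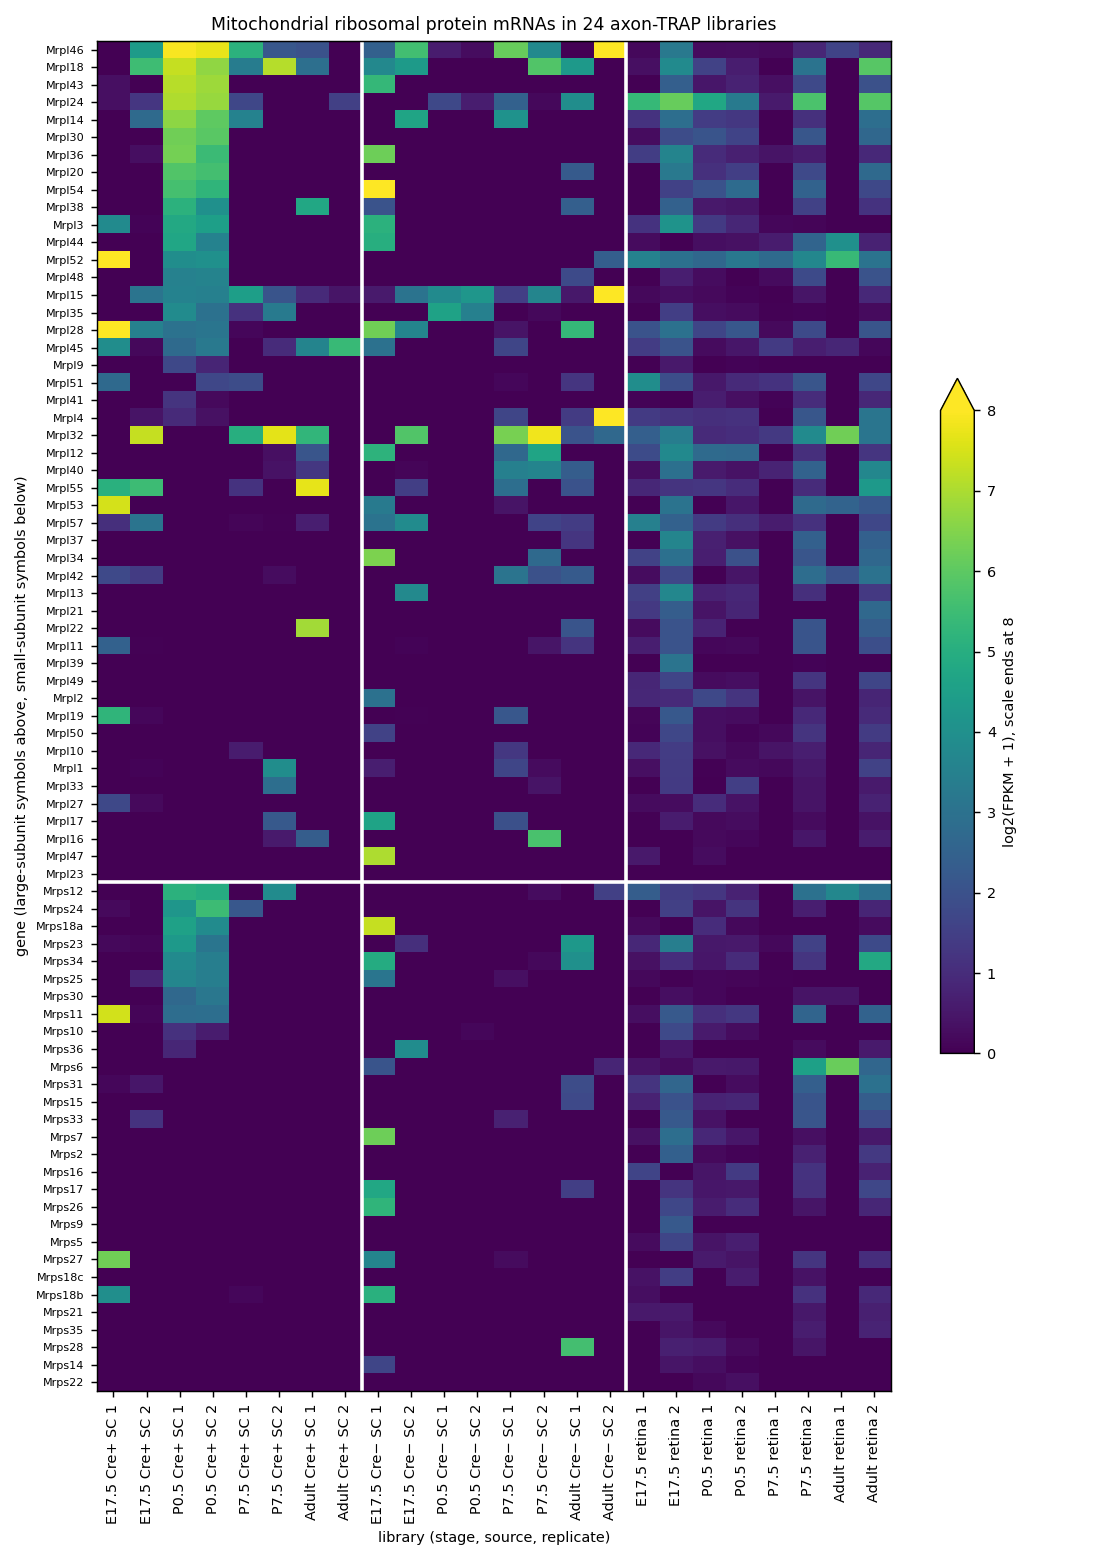
Level of each of the 77 members, as log2(FPKM + 1) in color, in the 24 libraries; large-subunit symbols stand above the white line and small-subunit symbols below, each ordered by P0.5 Cre-positive SC. The same 30 members are above 0 in both P0.5 Cre-positive libraries, the other SC libraries show scattered single values, and most retina libraries show nearly all members at low values.

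No member was above 0 in both Cre-positive SC libraries at all 4 stages. In at least 1 library of every stage, 5 members were above 0, namely Mrpl15, Mrpl18, Mrpl24, Mrpl45 and Mrpl46. Mrpl18, a protein of the central protuberance of the large subunit, had 0 and 44.5, 157 and 100, 9.22 and 137, and 6.62 and 0 FPKM from E17.5 to adult. Mrpl45, which lies near the polypeptide exit site where the ribosome docks to the inner membrane, had 14.1 and 0.137, 5.82 and 8.41, 0 and 0.979, and 11.3 and 40.9 FPKM at these stages. Both ranges overlap between stages. In all, 25 members were listed at 0 in all 8 Cre-positive SC libraries with FPKM and 12 in all 16 SC libraries with FPKM. This does not show that they are absent from axons. The adult Cre-positive SC library without run-off, described below, had 350 reads for Mrps2 and 152 for Mrps16, both among the 25. Others of them, such as Mrpl13 and Mrpl2, had 0 reads there. Every member above 0 in a Cre-positive SC library was above 0 in some retina library, and Mrpl23 was listed at 0 in all 24.

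At P0.5, a set of mitochondrial ribosomal protein mRNAs was listed higher in Cre-positive than in Cre-negative SC, as were many other genes. Both Cre-positive libraries were above both Cre-negative libraries for 28 of the 77 members (14.3% of all 23991 complete genes were), and both were below for 1 member (2.93% of genes). That member was Mrpl15, with 10.6 and 10.3 FPKM in Cre-positive and 13.2 and 17.6 in Cre-negative SC. In 45 members all 4 values were 0. The test, limma on log2(FPKM + 1) across the 16 SC libraries, covered the 5983 genes with 1 FPKM or more in any 2 libraries, 45 members among them. It called 16 members higher in Cre-positive SC and 0 lower at an adjusted p under 0.05, where it called 28.1% of all tested genes higher and 4.35% lower. As shares of the tested members these were 35.6% and 0%, so the share called higher was not far from that of all genes. The median difference was 2.94 over the tested members and 0.78 over all tested genes on the log2(FPKM + 1) scale. Both medians include genes that were tested only because they are high in the P0.5 Cre-positive libraries, 12 of the 45 members among them. They are a description and do not show that members shifted more than other genes.

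The largest level in P0.5 Cre-positive SC belonged to Mrpl46, another protein of the central protuberance (ENSMUSG00000030612, chromosome 7, 78775236 to 78783531). It had 241 and 213 FPKM in Cre-positive and 0.521 and 0.199 FPKM in Cre-negative SC. The groups did not overlap, but the gene also varied widely at other stages, with 0 and 596 FPKM in adult Cre-negative SC. Its difference of 7.39 (SE 2.64) on the log2(FPKM + 1) scale had an adjusted p of 0.0551 by limma and did not pass.

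The p-values of 9 of the 16 members need care, because these reached the filter only through the P0.5 Cre-positive libraries, where they are high, and so had to differ. They were Mrpl20, Mrpl30, Mrpl36, Mrpl43, Mrpl44, Mrpl48, Mrps24, Mrps25 and Mrps30, and their p-values are given as a description. The other 7 also reached it through other libraries.

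Among large-subunit members, Mrpl30 (ENSMUSG00000026087, chromosome 1, 37890477 to 37898535) had the smallest p. It had 75.6 and 61.2 FPKM in P0.5 Cre-positive SC and was listed at 0 in both Cre-negative libraries of P0.5 and in every SC library of the other stages, a difference of 6.11 (SE 0.43, adjusted p = 8.50e-06, limma). Mrpl20 had 55.4 and 48.2 FPKM against 0 and 0, a difference of 5.72 (SE 0.67, adjusted p = 6.54e-05). Mrpl43 (chromosome 19, 45004829 to 45006442) had 141 and 113 FPKM against 0 and 0, a difference of 6.99 (SE 1.29, adjusted p = 0.00169). Mrpl24 (chromosome 3, 87919506 to 87923672), a protein of the exit site, had 132 and 108 FPKM against 2.31 and 0.55, a difference of 5.73 (SE 1.33, adjusted p = 0.00674). Mrpl48, of the central protuberance, had 10.5 and 10.9 FPKM against 0 and 0 (difference 3.55, adjusted p = 3.26e-04), and Mrpl36 had 78.7 and 43 FPKM against 0 and 0 (difference 5.89, adjusted p = 0.0107). In each of these the groups did not overlap. Mrpl14, Mrpl44, Mrpl38, Mrpl3 and Mrpl18 also rose, with adjusted p from 0.0204 to 0.046.

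Among small-subunit members, Mrps30 (chromosome 13, 118378381 to 118387252) had 5.57 and 7.99 FPKM in P0.5 Cre-positive SC and was at 0 in all other SC libraries, a difference of 2.94 (SE 0.28, adjusted p = 1.74e-05, limma). Mrps24 had 17.4 and 43.4 FPKM against 0 and 0, a difference of 4.84 (SE 0.69, adjusted p = 2.72e-04). Mrps12 (chromosome 7, 28739641 to 28741820), which forms part of the decoding center, had 34.4 and 30.2 FPKM against 0 and 0, a difference of 5.05 (SE 1.03, adjusted p = 0.00321). Mrps25 and Mrps23 completed the 5 small-subunit members called, with differences of 3.55 and 3.73. Despite its name, Mrps30 is a protein of the large subunit in the mammalian mitochondrial ribosome.

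**Figure D3:**
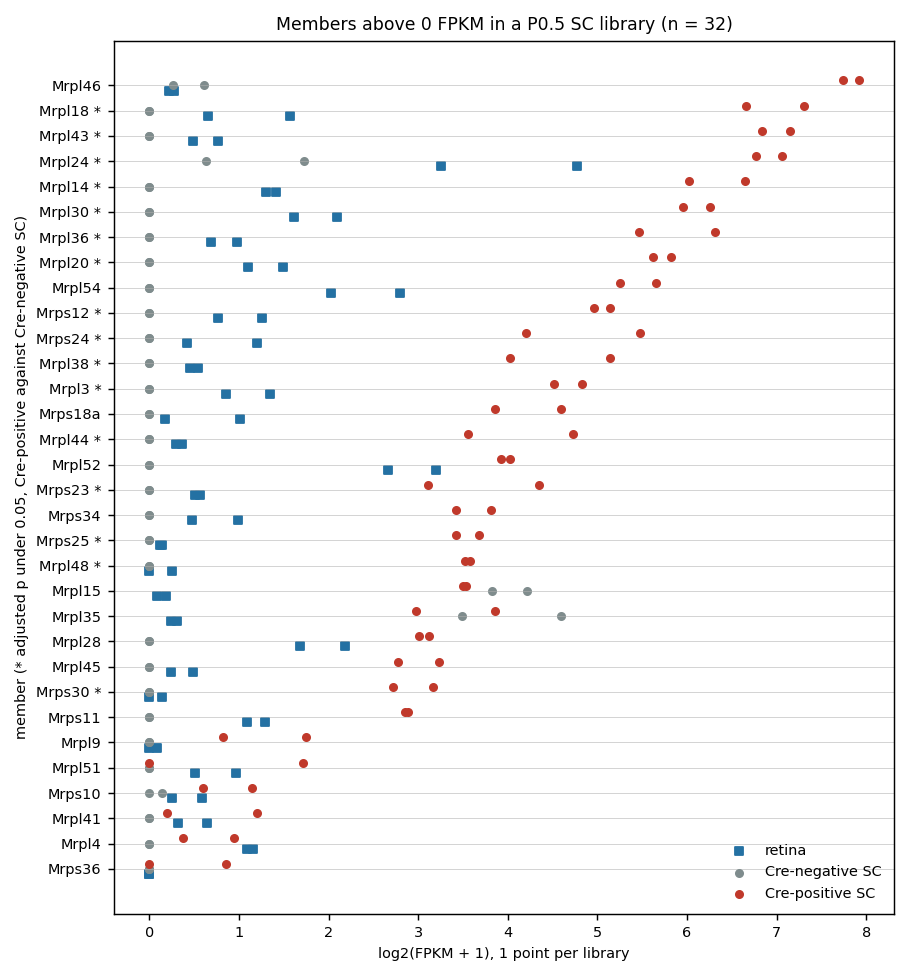
Level of the 32 members above 0 FPKM in a P0.5 SC library, with 1 point per library on a log2(FPKM + 1) axis for Cre-positive SC (red), Cre-negative SC (grey) and retina (blue squares); asterisks mark the 16 members called higher in Cre-positive than Cre-negative SC. Grey points are at 0 for most members, and Mrpl15 and Mrpl35 are the ones with Cre-negative values above 5 FPKM.

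By position in the ribosome, the members above 0 in both P0.5 Cre-positive libraries were spread over the structure. The central protuberance had 5 of 8 (Mrpl18, Mrpl38, Mrpl46, Mrpl48 and Mrpl52), the polypeptide exit site 2 of 6 (Mrpl24 and Mrpl45) and the stalk base, which recruits translation factors, 1 of 5 (Mrpl54). The head of the small subunit had 2 of 8 (Mrps10 and Mrps24), the decoding and mRNA path 1 of 2 (Mrps12), and the 3 Mrps18 paralogs 1 (Mrps18a). In the P0.5 retina, 4 of 5 stalk members, 3 of 6 exit-site members and 7 of 8 central protuberance members were above 0 in both libraries. Over all members, 21 of the 30 were large-subunit and 9 small-subunit symbols. No part of the ribosome was complete in the P0.5 Cre-positive libraries.

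The filter also bears on the count of 16, since in all 12 of the 45 tested members reached it only through the P0.5 Cre-positive libraries. Where genes had to reach 1 FPKM in 2 SC libraries other than those, a setting chosen after the data were seen, 33 members were tested and 5 were called (Mrpl14, Mrpl24, Mrpl38, Mrps12 and Mrps23), with 8.67% of all genes called higher. Leaving out any single P0.5 library lowered the count of 16 by more than 1.5 times. The number of all genes called higher also fell each time, so this was not particular to the members.

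Overlapping genes limit some of these calls. Tcp1, whose exons overlap Mrpl18, had 55.5 and 17 FPKM in P0.5 Cre-positive SC and 0 and 0 in Cre-negative SC. Tmem63b, which overlaps Mrpl14, had 59.4 and 30.4 against 3.38 and 0.852 FPKM. Rab6a, which overlaps Mrpl48, had 1.92 and 2.84 against 0 and 0 FPKM. Wdfy1, which overlaps Mrpl44, had 25.1 and 15.9 against 0 and 0, and Urgcp, which overlaps Mrps24, 21.3 and 12.4 against 0 and 0 FPKM. Rrnad1, which overlaps Mrpl24, went the other way, with 2.26 and 0.896 against 56.7 and 12.1 FPKM. Ndufs6 and Nr2c2, the partners of Mrpl36 and Mrps25, were below 1 FPKM in all 4 libraries.

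Markers of other cells were read beside this result, and their part in it was not tested. Photoreceptor markers were at 0 in all 4 P0.5 SC libraries. The summed RGC markers were 1100 and 653 FPKM in Cre-positive and 940 and 330 FPKM in Cre-negative SC. Of 7 tested, 2 were called higher (28.6%) and 0 lower, where 28.1% of all tested genes were higher. These were Stmn2 (587 and 408 against 0.257 and 0.0976 FPKM) and Slc17a6 (12.2 and 5.13 against 1.46 and 0.223). Astrocyte markers summed to 67.3 and 58.2 against 15.9 and 38.3 FPKM. Of 6 tested, 1 was called higher, Aldh1l1 (19.9 and 18.2 against 0 and 0.0289 FPKM), and 0 lower. Oligodendrocyte markers, of which 1 of 7 was above 0, were 84.7 and 86.6 against 86.2 and 48.1 FPKM. Microglia markers were 0 and 0 against 77 and 43.2 FPKM. Of 3 tested, 1, C1qa, was called lower and 0 higher, where 4.35% of all tested genes were lower. The estimated depth of 6020000 and 9070000 fragments in Cre-positive SC was near the 6030000 and 11200000 of Cre-negative SC.

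At the other stages no member was called between Cre-positive and Cre-negative SC. At E17.5 the test called 0.468% of all genes higher and 1.1% lower, at P7.5 0% in both directions, and in adult SC 0.0836% and 0.0669%. Among the 45 tested members, an unadjusted p under 0.05 was reached by 3, 4 and 2 at these stages. The smallest p at each stage belonged to Mrpl42 at E17.5, with 2.4 and 1.62 FPKM in Cre-positive and 0 and 0 in Cre-negative SC (adjusted p = 0.585, limma), Mrpl40 at P7.5, with 0 and 0.322 against 10.3 and 11.3 (adjusted p = 1), and Mrpl45 in the adult, with 11.3 and 40.9 against 0 and 0 (adjusted p = 0.892). Next in order were Mrps11 and Mrpl55 at E17.5, Mrpl42 and Mrpl35 at P7.5, and Mrpl4 and Mrps23 in the adult. The E17.5 result rested on single libraries, since 5 members were called higher without Cre-positive replicate 2 (253 of 5778 genes) and 11 lower without Cre-negative replicate 2 (802 of 5818 genes). At these stages a member often had a high value in 1 replicate and 0 in the other, and differences of this size were not detectable.

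Between stages within Cre-positive SC, some members rose from E17.5 to P0.5 and fell from P0.5 to P7.5, in shares near those of all genes. These comparisons share the P0.5 libraries with each other and with the Cre comparison of P0.5, so they are not separate evidence. From E17.5 to P0.5, 14 of 45 tested members (31.1%) rose and 0 fell, where 25.1% of all genes rose and 1.81% fell. Mrpl30 (0 and 0 FPKM at E17.5), Mrps30 (0 and 0) and Mrpl20 (0 and 0) had the smallest p, with adjusted p of 9.41e-06, 1.95e-05 and 7.45e-05 by limma, and all 3 reached the filter only through the P0.5 Cre-positive libraries. Mrpl24 went from 0.25 and 1.42 to 132 and 108 FPKM (difference 6.11, adjusted p = 0.00521). Mrpl35, present in Cre-negative SC as well, went from 0 and 0 to 13.5 and 6.85 FPKM (difference 3.42, adjusted p = 0.00746). The others that rose were Mrps24, Mrpl48, Mrpl43, Mrps12, Mrps25, Mrpl36, Mrpl44, Mrpl38 and Mrps23. All of these but Mrps12, Mrpl38 and Mrps23 also reached the filter only through the P0.5 Cre-positive libraries and so had to differ. The share of 31.1% includes them.

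From P0.5 to P7.5, 14 members (31.1%) fell and 0 rose, where 29.2% of all genes fell and 0.501% rose. Among the fallers were the 9 members named above for the Cre comparison of P0.5, Mrpl43 included, that had to differ. They reached the filter only through the P0.5 Cre-positive libraries. Mrpl43 fell from 141 and 113 FPKM to 0 and 0 (difference -6.99, adjusted p = 0.00184, limma). Mrpl24 fell from 132 and 108 to 2.28 and 0 FPKM (difference -6.05, adjusted p = 0.00537), and Mrps12 from 34.4 and 30.2 to 0 and 13.6 FPKM (difference -3.12, adjusted p = 0.0435). The order at P7.5 was led by Mrpl32, which is imported and matured by a protease before it joins the ribosome and which was at 0 in both P0.5 Cre-positive libraries. It had 31.1 and 201 FPKM in Cre-positive and 81.8 and 226 in Cre-negative SC at P7.5, so the groups overlapped. From P7.5 to adult no member passed, with 0.0836% of all genes higher and 0% lower, and the smallest p, that of Mrpl45, had an adjusted p of 1. An unadjusted p under 0.05 was reached by 2 members there.

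With the filter that leaves the P0.5 Cre-positive libraries aside, 2 members rose from E17.5 to P0.5 (Mrpl24 and Mrps12) and 1 fell from P0.5 to P7.5 (Mrpl24), of 33 tested, where 6.02% of all genes rose and 9.25% fell. Without P0.5 Cre-positive replicate 1 or replicate 2, the numbers that rose were 4 and 5, and those that fell 4 and 7. Without P7.5 Cre-positive replicate 1 or 2, 8 members fell in either case. Without E17.5 Cre-positive replicate 2, 6 members were lower at P0.5 than at E17.5, and without replicate 1 this was so for 1.

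The change in Cre-positive SC was also set against that in Cre-negative SC, as the interaction of stage and Cre. From E17.5 to P0.5 it was positive for 12 tested members (26.7%) and negative for 0, where 23.9% of all genes were positive and 3.23% negative. From P0.5 to P7.5 it was negative for 9 (20%) and positive for 0, where 18.7% of genes were negative and 2.74% positive. These shares lie near those of all genes, and 11 of the 12 members, all but Mrps12, reached the filter only through the P0.5 Cre-positive libraries. From P7.5 to adult no member and 0% of genes passed. Mrpl30, with an interaction of 6.11 (SE 0.60, adjusted p = 2.26e-04, limma), took all of it from the P0.5 Cre-positive libraries. Other interactions also contained high values of E17.5 Cre-negative replicate 1, the library of lowest depth, beside 0 in its partner. Mrpl54, with an interaction of 9.72 (SE 2.76, adjusted p = 0.0235), had 372 FPKM there, Mrps18a 157, Mrpl36 74.3, Mrpl43 39.1, Mrpl44 31 and Mrps25 7.58 FPKM. In the later interaction, Mrpl40 was at 0 in all 4 P0.5 SC libraries, and its value of -3.36 came from P7.5 Cre-negative SC (10.3 and 11.3 FPKM). With the filter on the other libraries, 0 members passed in either interaction. There 4.75% of genes were positive and 2.33% negative in the earlier one, and 0.36% positive and 0.0848% negative in the later. Without either P0.5 Cre-positive library, fewer members passed in both interactions. Without E17.5 Cre-negative replicate 2, more members passed in the earlier one. The numbers over all genes moved in the same directions.

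In retina, most members were listed at low values, and none passed the test between stages. Mrpl24 was the highest member at E17.5 (40.2 and 69.6 FPKM) and P0.5 (26.4 and 8.55), with 0.492 and 52.4 FPKM at P7.5 and 0 and 58.9 FPKM in the adult. Mrpl52 had 10.7 and 6.81, 5.34 and 8.19, 5.76 and 11.9, and 40.8 and 7.33 FPKM from E17.5 to adult. Mrpl12, a stalk protein that also binds the mitochondrial RNA polymerase, had 2.56 and 12.9, 5.8 and 5.56, 0 and 1.13, and 0 and 1.34 FPKM. Mrps6, a small-subunit protein, had 0 and 22.4 FPKM at P7.5 and 70.8 and 5.21 in the adult. Of 50 members tested among 4080 genes in the 8 retina libraries, none passed by limma in any of the 3 consecutive stage comparisons and none had an unadjusted p under 0.05. The background was 0% of genes in either direction from E17.5 to P0.5, 0.0245% higher and 0.049% lower from P0.5 to P7.5, and 0% from P7.5 to adult. The smallest p values were those of Mrpl51, Mrpl12 and Mrps34, each with an adjusted p of 1. No retina comparison gained a member when any 1 library was left out, P7.5 and adult replicate 1 included.

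Cre-positive SC and retina differed in which members were listed above 0 at P0.5, while the shares called in the fit below were close to those of all genes. Both Cre-positive SC libraries were above both retina libraries for 28 members (15.4% of all genes) and below for 32 (15.3% of genes). All 4 values were 0 for 5 members and for 13794 of 23991 genes. In all, 59 members were above 0 in both P0.5 retina libraries, and 31 of these were listed at 0 in both P0.5 Cre-positive SC libraries. This last pattern was not counted over all genes. The 30 members above 0 in both P0.5 Cre-positive SC libraries include Mrpl15 and Mrpl35, whose mean levels were higher in Cre-negative SC. The retinal levels of these 30 had a median of 0.631 FPKM. Those of the 45 members at 0 in both libraries had a median of 0.264 FPKM with a highest value of 5.68, so the ranges of the 30 and the 45 overlapped. Their median transcript lengths were 1030 and 1160 bases. Across the 77 members, the P0.5 levels in Cre-positive SC and retina had a Pearson r of 0.405 and a Spearman rho of 0.334 on the log2(FPKM + 1) scale, a description across genes that share libraries.

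In the fit of Cre-positive SC and retina, 19 of 60 tested members were called higher in Cre-positive SC at P0.5 and 2 lower, against 32.7% and 2.01% of 6321 genes. The shares of the tested members, 31.7% and 3.33%, were close to this background, while the median difference was -0.07 over the members and 1.10 over all genes. Mrps25 had 11.8 and 9.74 FPKM in Cre-positive SC and 0.101 and 0.0887 in retina (difference 3.42, SE 0.40, adjusted p = 5.12e-05, limma). Mrps18a, the paralog of the Mrps18 family that sits in the large subunit, had 23.1 and 13.5 against 1.02 and 0.13 FPKM (difference 3.63, adjusted p = 8.28e-05). Mrpl43 had 141 and 113 against 0.405 and 0.696 FPKM (difference 6.37, adjusted p = 3.05e-04). Mrpl46 had 241 and 213 against 0.164 and 0.21 FPKM (difference 7.58, adjusted p = 0.00277), and Mrpl35 13.5 and 6.85 against 0.239 and 0.182 FPKM (difference 3.14, adjusted p = 0.0057). Mrpl35 had 23.2 and 10.2 FPKM in P0.5 Cre-negative SC and was not called between Cre-positive and Cre-negative SC (difference -0.62). Mrps30, Mrpl36, Mrpl48, Mrps24 and Mrpl30 completed the 10 with the smallest p. Of the 19, Mrps25, Mrps18a and Mrps30 reached the filter of this fit only through the P0.5 Cre-positive libraries and so had to differ. Mrpl15, also among the 19, had higher values in Cre-negative than in Cre-positive SC, as given above.

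The 2 members lower in Cre-positive SC than in retina were Mrpl12 and Mrpl2. Mrpl12 (ENSMUSG00000039640, chromosome 11, 120484613 to 120489065) was at 0 in both Cre-positive SC libraries of P0.5 and had 5.8 and 5.56 FPKM in retina (difference -2.74, SE 0.86, adjusted p = 0.0274, limma). Mrpl2 (ENSMUSG00000002767, chromosome 17, 46646229 to 46650139), a protein of the large-subunit core, was at 0 in all 8 Cre-positive SC libraries and had 2.34 and 1.29 FPKM in P0.5 retina (difference -1.47, SE 0.37, adjusted p = 0.00853). For a median member, 3 fragments were 0.476 and 0.316 FPKM in the P0.5 Cre-positive libraries, below these retinal levels. Mrpl24, by contrast, was high in both sources, with 132 and 108 FPKM in Cre-positive SC and 26.4 and 8.55 in retina, and did not pass.

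**Figure D4:**
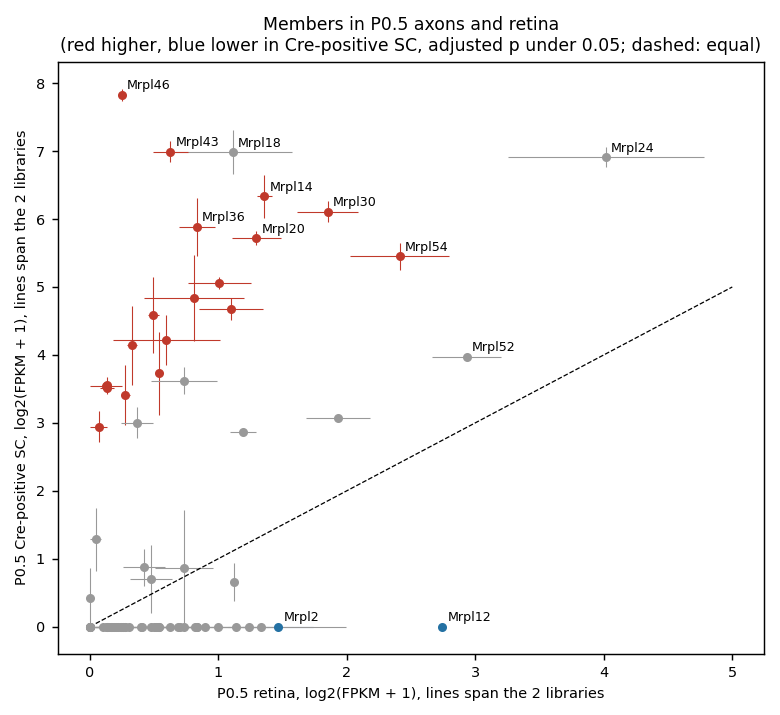
Level of the 77 members in P0.5 Cre-positive SC (vertical) against P0.5 retina (horizontal), both as log2(FPKM + 1); points are means and lines span the 2 libraries. The 19 red members were higher in Cre-positive SC and the 2 blue ones, Mrpl12 and Mrpl2, lower. A row of members lies at 0 in Cre-positive SC over a range of retinal levels.

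The other stages gave no call between Cre-positive SC and retina. The background was 0.57% of genes higher and 0.744% lower at E17.5, 0.0158% and 0% at P7.5, and 0.0949% and 0% for adults. Of the 60 members, 11, 2 and 5 had an unadjusted p under 0.05 at these stages. Mrpl13 at E17.5 (0 and 0 against 1.88 and 11.9 FPKM, adjusted p = 0.103, limma), Mrpl35 at P7.5 (1.22 and 8.89 against 0.0363 and 0.0546, adjusted p = 0.994) and Mrpl45 in the adult (11.3 and 40.9 against 0.801 and 0.112, adjusted p = 0.306) had the smallest p. At P0.5, fewer members were called higher whichever single library was left out, and the lower calls of Mrpl12 and Mrpl2 were lost each time. The numbers of all genes called higher and lower fell as well. With the filter on other libraries 13 of 55 members were higher and 0 lower, where 16.7% of genes were higher and 1.14% lower. At E17.5, some members were called higher without Cre-positive replicate 2 and some lower without retina replicate 1. More of all genes were also called in these directions. The SC libraries had more rounds of amplification than the retina libraries and retina contained lens crystallin mRNA (571 and 427 FPKM summed at P0.5, against 0.462 and 1.53 in Cre-positive SC). The part of either in these differences was not tested.

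Other genes of mitochondrial translation, from lists chosen with earlier results known, were called in part at P0.5, where 28.1% of all tested genes were called higher. Of 14 translation factors, 7 were tested and 3 were higher in Cre-positive than Cre-negative SC, among them the initiation factors Mtif3 (28.9 and 9.63 against 0.0311 and 0 FPKM, difference 4.13, adjusted p = 4.94e-05, limma) and Mtif2 (9.04 and 8.05 against 0 and 0, difference 3.25, adjusted p = 2.91e-04). The third was Lrpprc, which stabilizes mitochondrial mRNAs. Of 17 mitochondrial aminoacyl-tRNA synthetases, 7 were tested and 3 were higher (Cars2, Yars2 and Hars2). In the opposite direction, Sars2, the seryl-tRNA synthetase, had 0.421 and 0.0634 FPKM in Cre-positive and 119 and 51 in Cre-negative SC (difference -6.00, adjusted p = 1.06e-05). Of 19 assembly factors in the files, 6 were tested and 3 were higher. Mtg1, a GTPase of large-subunit assembly, had 35.9 and 35.9 against 0 and 0 FPKM (difference 5.21, adjusted p = 8.50e-06, limma), followed by Ftsj2 and Dhx30. Mtg1 reached the filter only through the P0.5 Cre-positive libraries and so had to differ. Other genes of these lists may have done so too, and their p-values are given as a description. None of the 6 mitochondrial ribosomal proteins of other names, such as Dap3, was called there, while Ict1, the peptidyl-tRNA hydrolase built into the large subunit, was higher in Cre-positive SC than in retina (32.9 and 34.1 against 1.25 and 2.86 FPKM, adjusted p = 0.0297). Ict1 had 107 and 39.6 FPKM in P0.5 Cre-negative SC, above both Cre-positive values. For comparison, 67 of 80 cytosolic ribosomal protein genes were tested in the same fit, and Cre-positive SC had 19 higher and 2 lower.

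The run-off libraries, whose SC samples were Cre-positive, gave read counts of the adult, with 1 library per condition and no replicate check. During run-off, new initiation is blocked while ribosomes already on an mRNA complete their chains, and a loss of reads on a gene is the readout. Members with reads numbered 45 in SC without and 28 with run-off, and 65 and 22 in retina. They summed to 6256 and 1161 reads in SC and to 3265 and 592 reads in retina. All genes together fell to 10.7% of the reads in SC and 6.72% in retina, so unscaled reads fall for most genes.

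Of 36 members with at least 10 reads in SC without run-off, 33 had fewer reads with it (91.7%) and 17 had none left (47.2%), against 96.6% and 52.9% of 4010 genes. In retina, 51 of 56 had fewer (91.1%) and 36 had none left (64.3%), against 97.3% and 55% of 6674 genes. Scaled to the reads on genes of each library, 30 of the 36 members in SC were more than 2-fold lower (83.3%) and 5 more than 2-fold higher (13.9%), against 74.7% and 11.6% of genes. In retina, 38 of 56 were lower (67.9%) and 13 higher (23.2%), against 63.4% and 19.8%. These shares lie near those of all genes.

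The members with most reads in SC were almost all lost. Mrpl43 had 831 reads without run-off (95% exact Poisson interval 775 to 889) and 0 with it (0 to 3.69). Mrpl35 went from 560 to 0, Mrpl40 from 434 to 0, Mrpl46 from 421 to 0, Mrpl57 from 361 to 2, Mrps11 from 352 to 2, Mrps2 from 350 to 1 and Mrpl17 from 297 to 0. In the adult Cre-positive libraries with FPKM, Mrpl40, Mrpl46 and Mrpl57 were above 0 in replicate 1 only. Mrpl43, Mrpl35, Mrps11, Mrps2 and Mrpl17 were at 0 in both. In retina, the members with most reads were Mrpl19 (155 to 0), Mrpl57 (140 to 10), Mrpl45 (135 to 13), Mrpl4 (134 to 17), Mrpl12 (134 to 0), Mrpl43 (127 to 4), Mrps7 (108 to 15) and Mrpl46 (104 to 36). Mrpl46 kept 34.6% of its retinal reads (95% Clopper-Pearson interval of the ratio 23 to 51), more than the 6.72% of all genes. The intervals cover counting error only, since PCR copies are not independent molecules, and 3 reads correspond to 8.59 CPM (counts scaled to the library total) in SC and 9.52 CPM in retina with run-off.

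A few members went the other way in SC. Mrpl4 had 16 reads without and 344 with run-off, Mrps7 49 and 129, and Mrpl14 13 and 95. Members under 10 reads without run-off that had more with it were Mrps15 (5 to 113), Mrpl19 (3 to 71), Mrpl45 (8 to 60) and Mrpl41 (1 to 51). The stalk proteins varied. Mrpl12 had 196 and 187 reads (95.4% left, interval 77.7 to 117) and Mrpl10 217 and 84 (38.7%, interval 29.7 to 50), which scaled to library totals was 8.91-fold and 3.62-fold higher with run-off. Mrpl54 had 167 and 3 reads and Mrpl11 1 and 1. In retina Mrpl12 went from 134 to 0 and Mrpl10 from 79 to 0, while Mrpl11, also of the stalk, went from 52 to 104. Of 36 members with at least 10 reads in a library of each tissue, 25 had fewer reads in both and 11 moved in opposite directions (30.6%), where 12% of 3266 genes did. Scaled to library totals, a setting added after the data were seen, 15 members moved in opposite directions (41.7%), where 39.2% of genes did, and 5 of the 11 (Mrpl14, Mrpl4, Mrpl41, Mrpl45 and Mrps7) were higher in both tissues. These are differences between single libraries.

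**Figure D5:**
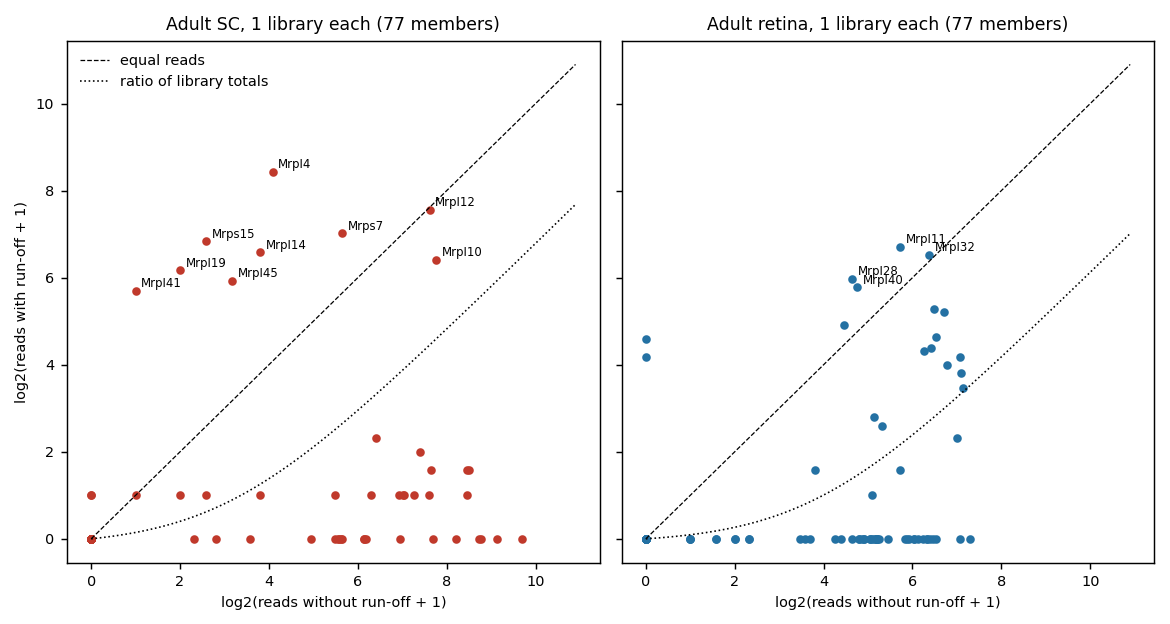
Reads of the 77 members with run-off (vertical) against without (horizontal), as log2(reads + 1), in adult SC (left) and adult retina (right), 1 library each; the dashed line marks equal reads and the dotted line the ratio of library totals. Most members lie at or near 0 reads with run-off, and Mrpl4, Mrps7, Mrps15 and Mrpl14 lie above the dashed line in SC.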

How the data were processed

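Reads had been mapped to mm10 with TopHat2 2.0.12. For the 24 libraries the authors deposited FPKM per gene from Cufflinks 2.2.1, and unnormalized read counts per gene from HTSeq 0.6.1p1 were deposited for the run-off samples. Versions follow the submitters' processing notes. Groups and replicate numbers came from the sample labels. The study's own test on counts was not used here, since the 24 libraries hold FPKM.

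The members and gene lists were chosen with earlier results of these data known. Genes with at least 1 FPKM in at least 2 libraries of a fit were tested with limma 3.58.1 (statmod 1.5.0, R 4.3.3) on log2(FPKM + 1), with trended, robust moderation. Differences are on that scale and understate changes of low genes. Two-sided p-values were adjusted by Benjamini-Hochberg within each comparison over all genes tested, at 0.05. Fits held the 16 SC libraries, the 8 retina libraries, or Cre-positive SC with retina, and the script was tested on simulated data. Of the genes listed, 4 with a missing entry, none of them a member, were left out. Named members are the 10 smallest p-values a direction and comparison past the threshold, or 3 where fewer passed, the 5 highest means a group, and the 8 highest read counts without run-off. Further names, such as the members with more reads after run-off, were chosen after their values were seen. Alternatives were another pseudocount, no filter, another filter, median-ratio scaling, a replicate block, a fit to each stage alone for the Cre comparison and leaving out libraries. Depth is known for the counts (315009 to 4686284 reads on genes a library) and estimated for FPKM. Coordinates are from GENCODE vM21 (GRCm38), promoters from RefSeq. Python 3.11.15 and scipy 1.17.1 were used.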

Additional observations from a re-analysis of the deposited data

Results flagged for a closer look

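The stage change of some members differed between Cre-positive and Cre-negative SC by the interaction test of limma, with 2 libraries a group. On the log2(FPKM + 1) scale, from E17.5 to P0.5, the interaction was 6.11 for Mrpl30, 2.94 for Mrps30, 5.72 for Mrpl20, 9.49 for Mrpl43, 4.73 for Mrps24, 3.55 for Mrpl48, 8.86 for Mrpl36, 4.70 for Mrps25, 6.64 for Mrpl44, 9.72 for Mrpl54, 5.05 for Mrps12 and 7.88 for Mrps18a. From P0.5 to P7.5 it was -6.11 for Mrpl30, -2.94 for Mrps30, -5.72 for Mrpl20, -3.55 for Mrpl48, -3.75 for Mrps24, -6.99 for Mrpl43, -3.36 for Mrpl40, -6.20 for Mrpl24 and -3.72 for Mrps25. The 12 and 9 members are 26.7% and 20% of those tested, where 23.9% and 18.7% of all genes passed in these directions. Both sets share the P0.5 libraries, and 0 members passed in either when genes had to reach the filter in libraries other than P0.5 Cre-positive SC. With that filter, 4.75% of genes were positive in the earlier interaction and 0.0848% negative in the later.

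With run-off, 11 of 36 members changed their unscaled reads in opposite directions in adult SC and retina, with 1 library per condition, so the difference between tissues was not tested. The share was 30.6%, against 12% of all genes. Scaled to library totals, which fell to 10.7% and 6.72%, it was 41.7% against 39.2%, and Mrpl14, Mrpl4, Mrpl41, Mrpl45 and Mrps7 were then higher with run-off in both tissues. Mrpl14 went from 13 to 95 reads in SC and from 85 to 20 in retina. Mrpl19 went from 3 to 71 reads in SC and from 155 to 0 in retina. Mrpl28 went from 11 to 0 reads in SC and from 24 to 62 in retina. Mrpl32 went from 120 to 1 reads in SC and from 82 to 91 in retina. Mrpl35 went from 560 to 0 reads in SC and from 0 to 23 in retina. Mrpl4 went from 16 to 344 reads in SC and from 134 to 17 in retina. Mrpl40 went from 434 to 0 reads in SC and from 26 to 54 in retina. Mrpl41 went from 1 to 51 reads in SC and from 88 to 38 in retina. Mrpl45 went from 8 to 60 reads in SC and from 135 to 13 in retina. Mrps15 went from 5 to 113 reads in SC and from 65 to 0 in retina. Mrps7 went from 49 to 129 reads in SC and from 108 to 15 in retina.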

How the results depend on the processing

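Each count of members called was recomputed under every alternative, and none of the values of named members changed sign. The filter on libraries other than P0.5 Cre-positive SC, added after the data were seen, left 5 members higher in Cre-positive than Cre-negative SC at P0.5. It left 2 risers from E17.5 to P0.5 with 0 in the interaction, and 1 faller from P0.5 to P7.5 with 0 in the interaction. It left 0 members lower in Cre-positive SC than in retina, and fewer members reach that filter. A pseudocount of 0.1 left 5 members in the later interaction, where 143 of 5983 genes were positive and 1039 negative. It left 9 members higher in Cre-positive SC than in retina at P0.5, where 1539 of 6321 genes were higher. The cause was not tested. Median-ratio scaling moved the median difference of all genes from -0.502 to -0.117 between E17.5 and P0.5 in retina, and from 0.322 to 0.0282 between P0.5 and P7.5 there. Between Cre-positive SC and retina at P0.5 it moved from 1.1 to 0.941. All 86 values of named members kept their call under it, while 16 of these calls were lost without the filter, 21 with the other pseudocount and 3 with the replicate block.

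With 1 library left out, members called higher in Cre-positive than Cre-negative SC numbered 0 to 5 at E17.5, 5 to 9 at P0.5 and 0 to 1 in the adult, and lower 0 to 11 at E17.5, 0 to 1 at P7.5 and 0 to 1 in the adult. From E17.5 to P0.5, 4 to 11 rose and 0 to 6 fell, and the interaction was positive for 3 to 19 and negative for 0 to 6. From P0.5 to P7.5, 4 to 8 fell and 0 to 1 rose, and the interaction was negative for 0 to 6 and positive for 0 to 2. From P7.5 to adult, 0 to 2 rose, 0 to 1 fell, and the interaction was positive or negative for 0 to 1. Against retina, 0 to 7 were higher and 0 to 4 lower at E17.5, 6 to 10 higher and 0 lower at P0.5, 0 to 1 higher at P7.5, and 0 to 1 higher or lower in the adult. A group with 1 library left was assumed to vary like the others.

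The replicate block left the count at P0.5 at 17 members higher in Cre-positive SC and moved the lower calls against retina to 1; it moved no other count of members by over 1.5 times. Over all genes it moved the calls between Cre-positive and Cre-negative SC from 28 higher and 66 lower to 4 and 15 at E17.5 and from 5 and 4 to 0 and 0 in the adult, and those against retina at E17.5 from 36 and 47 to 0 and 0. The deviations of same-numbered Cre-positive and Cre-negative libraries correlated at 0.565, 0.427, 0.456 and 0.081 from E17.5 to adult over genes. For Cre-positive SC and retina, which the study compared in the same animals, they correlated at 0.15, 0.449, 0.526 and -0.0981. Labels do not say that numbers pair libraries, so they were not treated as pairs.

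At 1 FPKM in place of above 0, the mean number of members a library was 13 (of 21.5), 28 (of 31) and 9.5 (of 15) for E17.5, P0.5 and P7.5 Cre-positive SC. It was 2.5 (of 4.5) and 12.5 (of 19.5) in Cre-negative SC at P0.5 and P7.5. In retina it was 35.5 (of 58.5), 18.5 (of 65), 22 (of 44.5) and 24 (of 36.5) from E17.5 to adult. With reads scaled to the library total, 69.6% of members fell with run-off in retina, against 91.1% unscaled. Depth limits E17.5 Cre-negative replicate 1 most, where 3 fragments of a median member are 5.77 FPKM, followed by an adult library at 5.70 FPKM.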
